A study of Mus musculus with 38 samples.

Results

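The lysosome, autophagy and MiT/TFE genes described here are 43 of the 21705 genes in an RNAseq table of mouse kidney cancer models. They were taken from the table by gene symbol, and all 43 symbols were found. The table holds 38 libraries in 10 groups. In the MYC model, Ksp-rtTA drives a doxycycline-inducible Tet-O-MYC transgene in renal tubule cells. The VM model adds tamoxifen-inducible KspCreERT2 with Vhl F/F alleles, and the VIM model further adds germline Ink4a/Arf -/-. Cells of each model were plated with Dox, which switches the transgene on, or without it, with 4 libraries per group. All cell groups therefore carry the transgene, and each model is represented by 1 line derived from a tumour. The MYC line is labelled 2983, whereas the number of the VM line, 3055, is given in the study's text only. Tumours came from mice kept on Dox, with 3 libraries for each model, and 5 normal kidney libraries came from wild-type mice labelled as vehicle. The titles of 2 kidney libraries begin with B6 and those of the other 3 with KT, which the labels do not explain. The 3 MYC tumour libraries came from 2 mice. Mouse numbers 2983 and 3055 appear both among the tumours and among the lines. Ages are not given in the labels. No group received Dox without the transgene, so Dox and MYC cannot be told apart.

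Lysosomes are acidic organelles in which hydrolases break down proteins, glycans and lipids delivered by endocytosis and autophagy. The vacuolar proton pump (V-ATPase) acidifies them, membrane glycoproteins such as Lamp1 and Lamp2 line them, and autophagy proteins such as Sqstm1 and the Map1lc3 family carry cargo to them. The MiT/TFE family of transcription factors, which includes Mitf, Tfeb and Tfec, binds E-box elements in the promoters of many of these genes. Nutrient signalling through mTORC1 keeps these factors in the cytoplasm, so their RNA level is not a measure of their activity. In the kidney, tubule cells that take up filtered protein are rich in lysosomes, and rearranged MiT/TFE genes mark a class of renal carcinoma.

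Values are given in the authors' units, which set every library's upper quartile to 1000. The libraries held an estimated 8.22 to 36.6 M reads. A level of 3 reads, 1.16 to 5.65 units depending on the library, is called the floor. As a check of the labels, Vhl had 8.32 to 38.8 units in the VM and VIM cell libraries and 433 to 543 in the MYC cell libraries, and it had 40.2 to 79.9 in VM tumours, 219 to 312 in VIM tumours and 612 to 772 in normal kidney. Cdkn2a, the gene of the Ink4a/Arf locus, had 24.9 to 40.8 units in VIM cells and 3056 to 5701 in the other cell groups, and it had 30.1 to 95.5 in VIM tumours, 3392 to 4347 in VM tumours, 59.3 to 2872 in MYC tumours and at most 3.8 in normal kidney. The share of tumour cells in the tumour libraries was not assessed. The transgene has no row of its own, and the mouse Myc row was lower with Dox in each line, by 1.44 to 1.96 on the log2 scale. Of 14 macrophage markers in the table, 4 or 5 were above the floor in every library of each cell group. Between 4 and 9 were at or under it in every library of a group. Emr1 and C1qa averaged at most 1.12 units in the cells, while the 14 summed to 474 to 1400 units. The renal epithelial genes Cdh16 and Pax8 averaged 3483 to 12708 and 1878 to 3835 units in the cell groups. They belong to a list of 7 kidney epithelium markers. All 7 were above the floor in every MYC and VIM cell library, and 6 in every VM cell library. For VM minus MYC cells with Dox, the 7 had log2 differences of −4.86 to 1.90. For VIM minus VM cells these were −2.52 to 3.49. Changes were tested with limma on log2(value + 1), and p-values were adjusted over all genes tested by Benjamini-Hochberg. A member passed, rose or fell where its adjusted p was under 0.05 and its log2 change exceeded 1 in size. Since nothing says that the libraries of one line came from separate cultures, p-values for cells measure the spread between these libraries, which may be technical.

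The promoters of the family are shown first because the E-box letters that MiT/TFE factors bind, CACGTG, are also the letters bound by MYC with its partner MAX. RefSeq promoters (GRCm38.p6, 250 bases before to 50 after the gene start) were found for 36 of the 43 members. CACGTG, a palindrome that reads alike on both strands, was present in 10 of the 36 (27.8%), against 7.24% of all 27025 promoters and 8.33% of the 14753 promoters of genes in the table. The longer TCACGTGA, which contains CACGTG, was present in 4 of the 36 (11.1%). It was present in 1.01% of all promoters and 1.38% of the promoters of genes in the table. The same letters with G before and C after them were also counted, and were present in 0 of the 36. They were present in 0.359% of all promoters and 0.508% of those of genes in the table. At so low a share, 36 promoters cannot show whether members hold them less often. The 4 members with TCACGTGA were the channel Mcoln1, the protease Ctsd and the pump subunits Atp6v0d1 and Atp6v1a, and their capitals mark that match. Lamp1, chosen after the counts were seen, is printed because its promoter held CACGTG at 4 positions, in capitals. Other copies of CACGTG in the first 4 sequences stay in lower case.
Mcoln1 (chr8:3500269-3500568, plus strand): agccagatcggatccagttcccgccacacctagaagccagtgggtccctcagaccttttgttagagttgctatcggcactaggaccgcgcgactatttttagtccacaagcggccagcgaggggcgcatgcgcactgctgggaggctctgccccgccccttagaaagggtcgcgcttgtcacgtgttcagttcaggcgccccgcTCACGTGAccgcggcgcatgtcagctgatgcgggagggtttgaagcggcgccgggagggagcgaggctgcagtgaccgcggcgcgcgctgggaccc
Ctsd (chr7:142387778-142388077, minus strand): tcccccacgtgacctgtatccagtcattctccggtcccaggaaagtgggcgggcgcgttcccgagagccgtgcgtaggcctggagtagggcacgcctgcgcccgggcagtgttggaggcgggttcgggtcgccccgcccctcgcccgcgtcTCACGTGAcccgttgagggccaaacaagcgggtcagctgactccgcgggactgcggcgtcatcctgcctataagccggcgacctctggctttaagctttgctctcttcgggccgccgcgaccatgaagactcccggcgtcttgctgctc
Atp6v0d1 (chr8:105566015-105566314, minus strand): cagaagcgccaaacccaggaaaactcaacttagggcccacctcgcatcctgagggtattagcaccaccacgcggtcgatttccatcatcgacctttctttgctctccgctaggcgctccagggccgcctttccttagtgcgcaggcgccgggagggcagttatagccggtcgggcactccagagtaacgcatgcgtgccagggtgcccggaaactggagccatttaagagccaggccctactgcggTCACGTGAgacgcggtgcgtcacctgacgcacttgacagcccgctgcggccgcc
Atp6v1a (chr16:44139210-44139509, minus strand): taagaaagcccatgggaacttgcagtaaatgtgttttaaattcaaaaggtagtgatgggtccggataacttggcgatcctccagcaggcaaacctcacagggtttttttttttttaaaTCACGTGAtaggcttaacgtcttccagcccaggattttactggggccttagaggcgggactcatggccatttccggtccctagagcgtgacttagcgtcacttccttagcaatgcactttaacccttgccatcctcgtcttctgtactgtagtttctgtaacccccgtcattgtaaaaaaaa
Lamp1 (chr8:13158911-13159210, plus strand): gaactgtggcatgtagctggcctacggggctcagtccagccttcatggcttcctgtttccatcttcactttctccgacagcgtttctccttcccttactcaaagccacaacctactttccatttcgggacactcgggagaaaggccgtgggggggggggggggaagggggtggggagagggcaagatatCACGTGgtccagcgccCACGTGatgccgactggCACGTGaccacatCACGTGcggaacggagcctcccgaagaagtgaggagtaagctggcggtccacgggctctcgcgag
The TCACGTGA match began 46 bases before the gene start in Mcoln1, 99 in Ctsd, 4 in Atp6v0d1 and 132 in Atp6v1a, and the CACGTG matches in Lamp1 began 61, 45, 28 and 15 bases before it. The other 5 promoters with CACGTG belonged to Ctsl, Glb1, Naglu, Sgsh and Arsa. A match of letters is a description of the sequence only.

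The transcription factors themselves differed between the lines and between cells and tissue. Mitf had 132, 138, 122 and 151 units in the MYC cell libraries with Dox and 273, 269, 246 and 262 without. In VM cells it had 103, 104, 102 and 114 with Dox and 185, 210.2, 191 and 180.0 without. In VIM cells it had 51.4, 44.4, 57.1 and 46 with Dox and 43.7, 45.7, 59.2 and 51.4 without. The groups with and without Dox did not overlap in MYC and VM cells and overlapped in VIM cells. The log2 changes with Dox were −0.95 ± 0.07 (SE, n = 4 per group) in MYC cells, −0.85 ± 0.09 in VM cells and −0.00 ± 0.15 in VIM cells, with limma adjusted p-values of 5.73e-10, 1.8e-07 and 0.979, and none exceeded 1. The direction in VIM cells flipped to 0.13 with TMM rescaling. The change in VIM cells differed from that in VM cells by 0.85 ± 0.17 (limma interaction, adjusted p = 0.000521). Mitf (mm9, chromosome 6, 97757052 to 97971352) overlaps Gm15531 on the other strand.

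Tfeb had 201, 184, 208 and 183 units in MYC cells with Dox and 253, 262, 252 and 258 without. The VM cell libraries had 124, 96.9, 92.8 and 94.7 with Dox and 100.5, 95.8, 113 and 118 without, which overlap. The VIM cell libraries had 36.5, 29.5, 33.4 and 39.2 with Dox and 37.2, 56.5, 70.4 and 70.4 without, which also overlap. Log2 changes with Dox were −0.40 ± 0.06, −0.07 ± 0.12 and −0.71 ± 0.19 in the MYC, VM and VIM lines (limma adjusted p = 5.18e-06, 0.611 and 0.00222), and the direction in VM cells flipped to 0.15 with TMM rescaling. Tfec, whose product is found mainly in macrophages and a few other cell types, was near the floor in the cells. It averaged 7.05 ± 1.51 units (SD, n = 4) in MYC cells with Dox and 5.67 ± 1.87 without, at most 2.5 in either VM group, and it was at 0 in each of the 8 VIM cell libraries.

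In tissue all 3 factors were present in every library. Tfec had 587, 296 and 322 units in MYC tumours, 558, 401 and 671 in VM tumours, 642, 366 and 469.9 in VIM tumours and 328 to 664 in normal kidney, with overlap between each tumour group and kidney. Mitf had 180.0, 129.6 and 91.8 units in MYC tumours, below the 265 to 498 of the kidneys, and fell by 1.25 on the log2 scale (SE 0.30, limma adjusted p = 0.00824). This call was lost when all tissue groups were fitted together, where the change was also −1.25. In VM tumours Mitf had 1064, 222 and 379.8 units, and in VIM tumours it had 380.4, 267 and 415, both overlapping the kidneys. Tfeb had 287, 239 and 359 in MYC, 228, 356 and 171 in VM and 208, 225 and 191 in VIM tumours, all under the 363 to 418 of normal kidney, and its log2 changes of −0.42, −0.69 and −0.89 did not exceed 1.

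**Figure D1:**
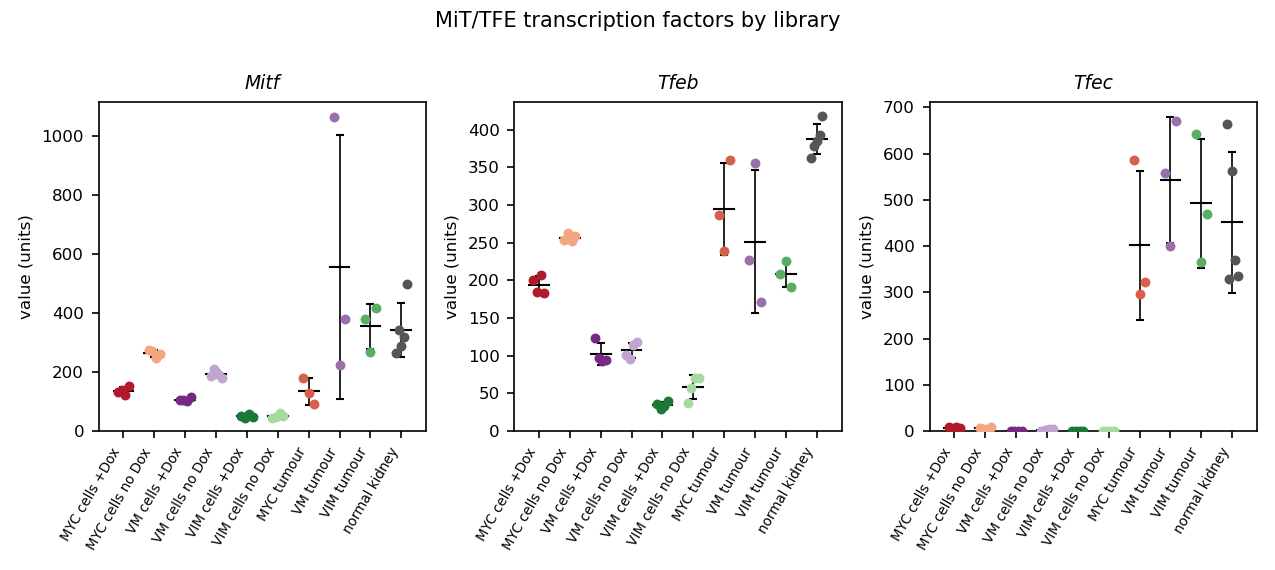
Levels of Mitf, Tfeb and Tfec (units, linear axis) in each library of the 10 groups; points are libraries, horizontal lines are means and error bars are SD. Mitf averages 262 units in MYC cells without Dox and 136 with it, and Tfec is near 0 in the cell groups and averages 402 to 543 units in the tissue groups.

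Across the 43 members, RNA levels were mostly lower with Dox in each of the 3 lines. In MYC cells 42 members could be tested, and 10 fell and 0 rose (19.5% of all genes tested passed, 4.49% higher and 15% lower). In VM cells 42 were tested, and 21 fell and 0 rose (24.8% of all genes passed, 5.92% higher and 18.9% lower). In VIM cells 41 were tested, and 17 fell and 0 rose (24.3% of all genes passed, 7.67% higher and 16.6% lower). The median log2 change of the tested members was −0.69, −1.02 and −0.95 in the MYC, VM and VIM lines, beside −0.13, −0.26 and −0.15 for all genes. Of the 21 members that fell in VM cells, Gpnmb, Hexa and Tfec lay within a few units of the floor in both groups, and pseudocounts of 0.1 and 10 gave 19 and 18 members. Leaving out 1 library at a time, 19 passed in 7 of 8 cases, each time without Hexa and Tfec, and 21 passed without the first VM library without Dox. In those 7 cases Hexa and Tfec either had an adjusted p of 0.0552 to 0.0597 or were above 0 in too few libraries to be tested. The 43 members together made up 0.615% to 0.650% of the library total in MYC cells with Dox and 0.962% to 0.974% without. In VM cells these shares were 0.530% to 0.556% and 1.06% to 1.12%, and in VIM cells 0.610% to 0.633% and 0.989% to 1.0%.

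Without the requirement on size, 38, 38 and 37 members were lower at an adjusted p under 0.05 in the MYC, VM and VIM lines, where 44%, 47.7% and 44.2% of all genes were lower by that rule. By the same rule 1 member was higher in each line, where 31.5%, 26.1% and 31.1% of all genes were higher. The lines share no libraries, and 36 of the 41 members tested in all 3 were lower by this rule in each line (33.5% of the 13378 genes tested in all 3). The members that fell in each line numbered 9, namely Gpnmb, Ctsd, Hexa, Neu1, Naglu, Arsa, Grn, Map1lc3a and Wipi1 (8.23% of genes fell in all 3). Hexa counts among them in VM cells on 0 to 0.849 units with Dox and 0 to 4.65 without, which overlap. Sums of cell type markers also differed with Dox. Summed macrophage markers had 562 to 625 units in MYC cells with Dox and 1317 to 1400 without, 474 to 533 and 1151 to 1216 in VM cells, and 521 to 555 and 609 to 688 in VIM cells. Summed fibroblast markers had 297 to 309 and 991 to 1180 units in MYC cells, 87.4 to 111 and 631 to 710 in VM cells, and 25.0 to 36.1 and 140 to 180 in VIM cells. Summed markers of kidney epithelium had 11871 to 13390 units in MYC cells with Dox and 17689 to 18627 without, 6215 to 6388 and 13495 to 14015 in VM cells, and 6034 to 6162 and 10401 to 11131 in VIM cells. None of the macrophage, fibroblast and kidney epithelium ranges overlapped between cells with and without Dox. Summed proximal tubule markers had 4547 to 5523 units in MYC cells with Dox and 6651 to 7889 without. They overlapped in VM cells, at 4142 to 5559 and 5532 to 8265, and in VIM cells, at 3805 to 4428 and 4154 to 4912. By fitted value, 5, 5 and 4 of the 7 kidney epithelium markers were lower with Dox in the MYC, VM and VIM lines. The rest of the 7 were higher. The part of these markers in the member changes was not tested. The scaling bears on the size of these changes. Over all genes 678 passed higher and 2264 lower in MYC cells, 847 and 2707 in VM cells and 1074 and 2322 in VIM cells, and with quantile normalization 1073 and 1480, 1490 and 1591, and 1529 and 1572. With TMM rescaling the median of all genes was −0.00, −0.05 and −0.03, and the median of the members was −0.55, −0.79 and −0.81. With it 5, 18 and 8 members fell, while Gusb rose in VIM cells. Among all genes, 1850 of 15104 fell in MYC, 2018 of 14319 in VM and 1911 of 13998 in VIM cells under TMM. In MYC cells the share of members that fell was then no larger than that of all genes. Under TMM rescaling 37, 37 and 35 members were still lower at an adjusted p under 0.05, and 38, 36 and 35 under quantile normalization.

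**Figure D2:**
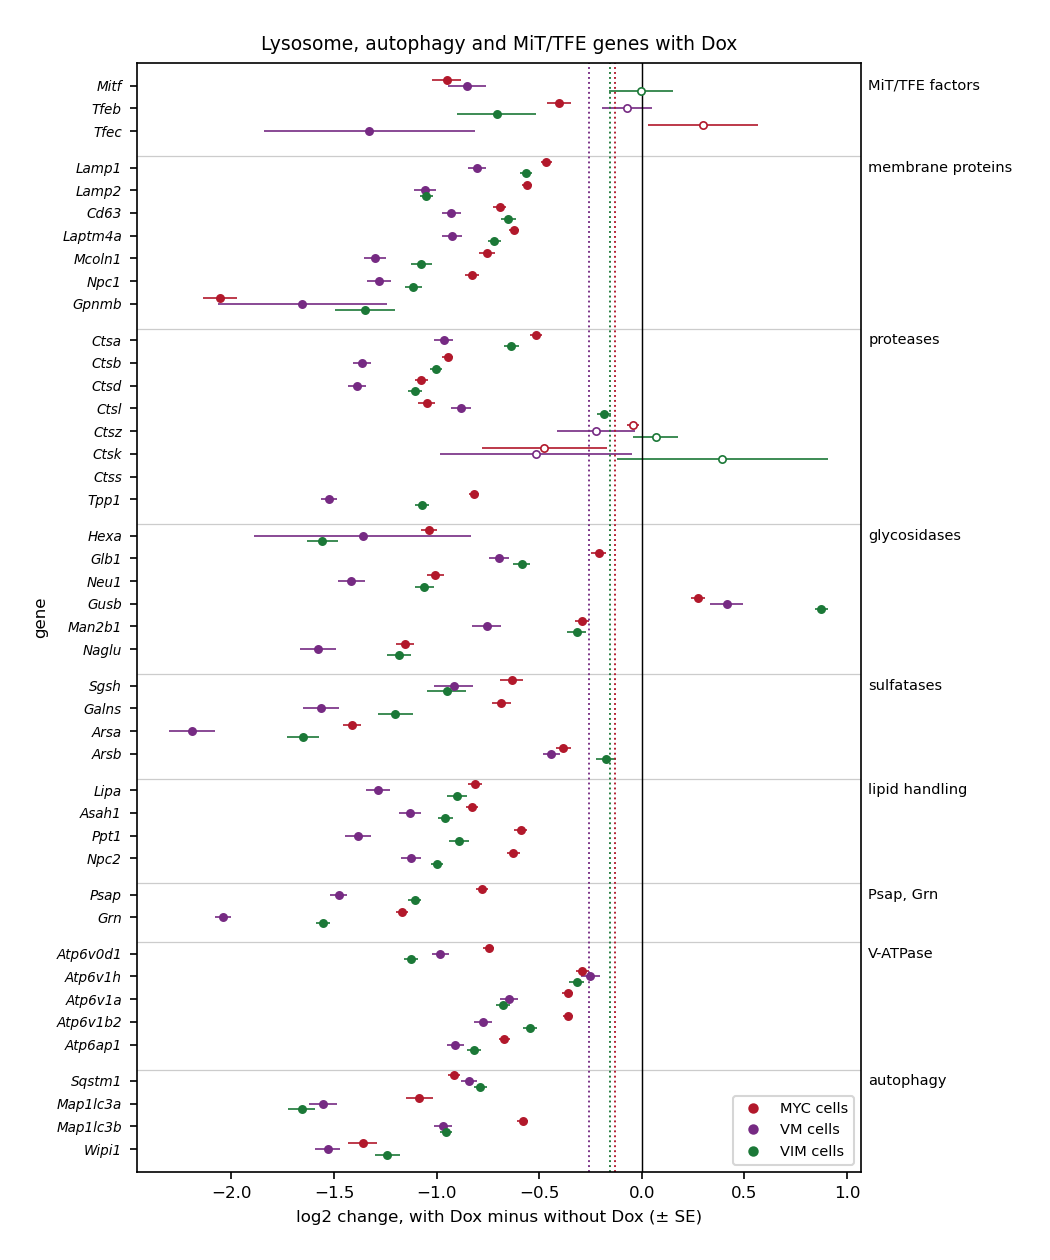
Log2 change with Dox minus without Dox (± SE) of each member that could be tested in MYC, VM and VIM cells, ordered by role; filled points have a limma adjusted p under 0.05 and dotted lines mark the median of all genes in each line. Most points lie left of the dotted lines, and Gusb lies to the right of 0 in each line, at 0.27, 0.41 and 0.87.

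Enzymes that remove sulfate groups and sugars from glycans come first. Arsa, which encodes arylsulfatase A, had 254, 249, 248 and 276 units in MYC cells with Dox and 700.1, 688, 676 and 676 without. In VM cells it had 68, 84.3, 63.7 and 58.8 with Dox and 309.5, 303, 344 and 303 without, and in VIM cells 130.5, 150.4, 154 and 123 with Dox and 455, 436, 413 and 449.6 without. Every library with Dox was below every library without it in each line. The log2 changes were −1.41 ± 0.04, −2.19 ± 0.11 and −1.65 ± 0.08 (limma adjusted p = 1.92e-15, 4.16e-12 and 2.7e-14), a 2.66-, 4.57- and 3.14-fold fall. Reads of Arsa and of a gene annotated on the other strand at the same place (C230037L18Rik) may be mixed if strand was not used in counting, which the sources used here do not state.

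Naglu, an enzyme of heparan sulfate breakdown, had 119.7, 131, 107 and 111 units in VM cells with Dox and 335, 328, 383 and 360.0 without, a log2 change of −1.58 ± 0.09 (limma adjusted p = 1.78e-11). It averaged 239.9 ± 4.49 with Dox and 536 ± 20.4 without in MYC cells (SD, n = 4), and 278 ± 16 and 631 ± 41.5 in VIM cells. Hexa, the alpha subunit of beta-hexosaminidase, had 128, 128, 157 and 138 units in VIM cells with Dox and 396, 408, 418 and 399.8 without, a change of −1.56 ± 0.08 (limma adjusted p = 4.22e-14). It averaged 346 ± 11.1 and 712 ± 22.9 in MYC cells with and without Dox. Neu1, a sialidase, fell in each line, by 1.01, 1.41 and 1.06 on the log2 scale. Galns, a sulfatase of keratan sulfate breakdown, fell by 1.56 in VM and 1.20 in VIM cells and had a change of −0.68 in MYC cells. Arsb, another sulfatase, changed least among the 4 sulfatases, by −0.38, −0.44 and −0.17.

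Gusb (mm9, chromosome 5, 130464881 to 130478919), which encodes beta-glucuronidase and is often used as a reference gene, went the other way. It had 2573, 2313, 2390.4 and 2476 units in MYC cells with Dox and 2096, 1902, 2050.3 and 2022 without. VM cells had 229, 214, 235 and 238 with Dox and 163, 166, 179.8 and 178 without, and VIM cells had 2685, 2693, 2765 and 2691 with Dox and 1534, 1466, 1461 and 1446 without. Libraries with Dox were above those without it in every line. The log2 changes were 0.27 ± 0.03, 0.41 ± 0.08 and 0.87 ± 0.03 (limma adjusted p = 1.11e-06, 0.000144 and 2.32e-16). It was the only member higher at an adjusted p under 0.05 in all 3 lines, and none of its changes exceeded 1 with the authors' scaling.

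Among the proteases, Ctsd, the main aspartic protease of lysosomes, fell in each line, by 1.07, 1.39 and 1.11 on the log2 scale. Ctsb fell by 1.36 in VM and 1.0 in VIM cells, Tpp1 by 1.52 and 1.07, and neither exceeded a change of 1 in MYC cells. Ctsl, a cysteine cathepsin, averaged 13035 ± 899.9 with Dox and 26927 ± 479 without in MYC cells (SD, n = 4), a fall of 1.05. It averaged 10726 ± 514 and 12175 ± 166 in VIM cells, where its change was −0.18. The difference between the VIM and VM changes of Ctsl was 0.70 ± 0.06 (limma interaction, adjusted p = 8.88e-09). Ctsz had changes of −0.04, −0.22 and 0.07, none with an adjusted p under 0.05. Ctss was at or under the floor in all 24 cell libraries and Ctsk had at most 8.16 units in any of them.

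Grn encodes progranulin and Psap encodes prosaposin, the precursor of the activators of sphingolipid hydrolases. Grn had 3122, 2898, 2925 and 3116 units in MYC cells with Dox and 6551, 6745, 6799 and 7004 without. In VM cells it had 1355, 1409, 1356 and 1404 with Dox and 5698, 5587, 5771 and 5679 without. In VIM cells it had 1373, 1429, 1455 and 1439.6 with Dox and 4161, 4043, 4082 and 4450.5 without. No library with Dox reached the lowest library without it. The log2 changes were −1.17 ± 0.03, −2.04 ± 0.04 and −1.55 ± 0.03 (limma adjusted p = 1.87e-16, 5.83e-17 and 9.53e-20). Psap changed by −0.78, −1.48 and −1.11. The 4 genes of lipid handling, namely Lipa, Asah1, Ppt1 and Npc2, fell in VM cells, by 1.12 to 1.38, and none of them passed in MYC or VIM cells, where all 4 were lower at an adjusted p under 0.05.

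**Figure D3:**
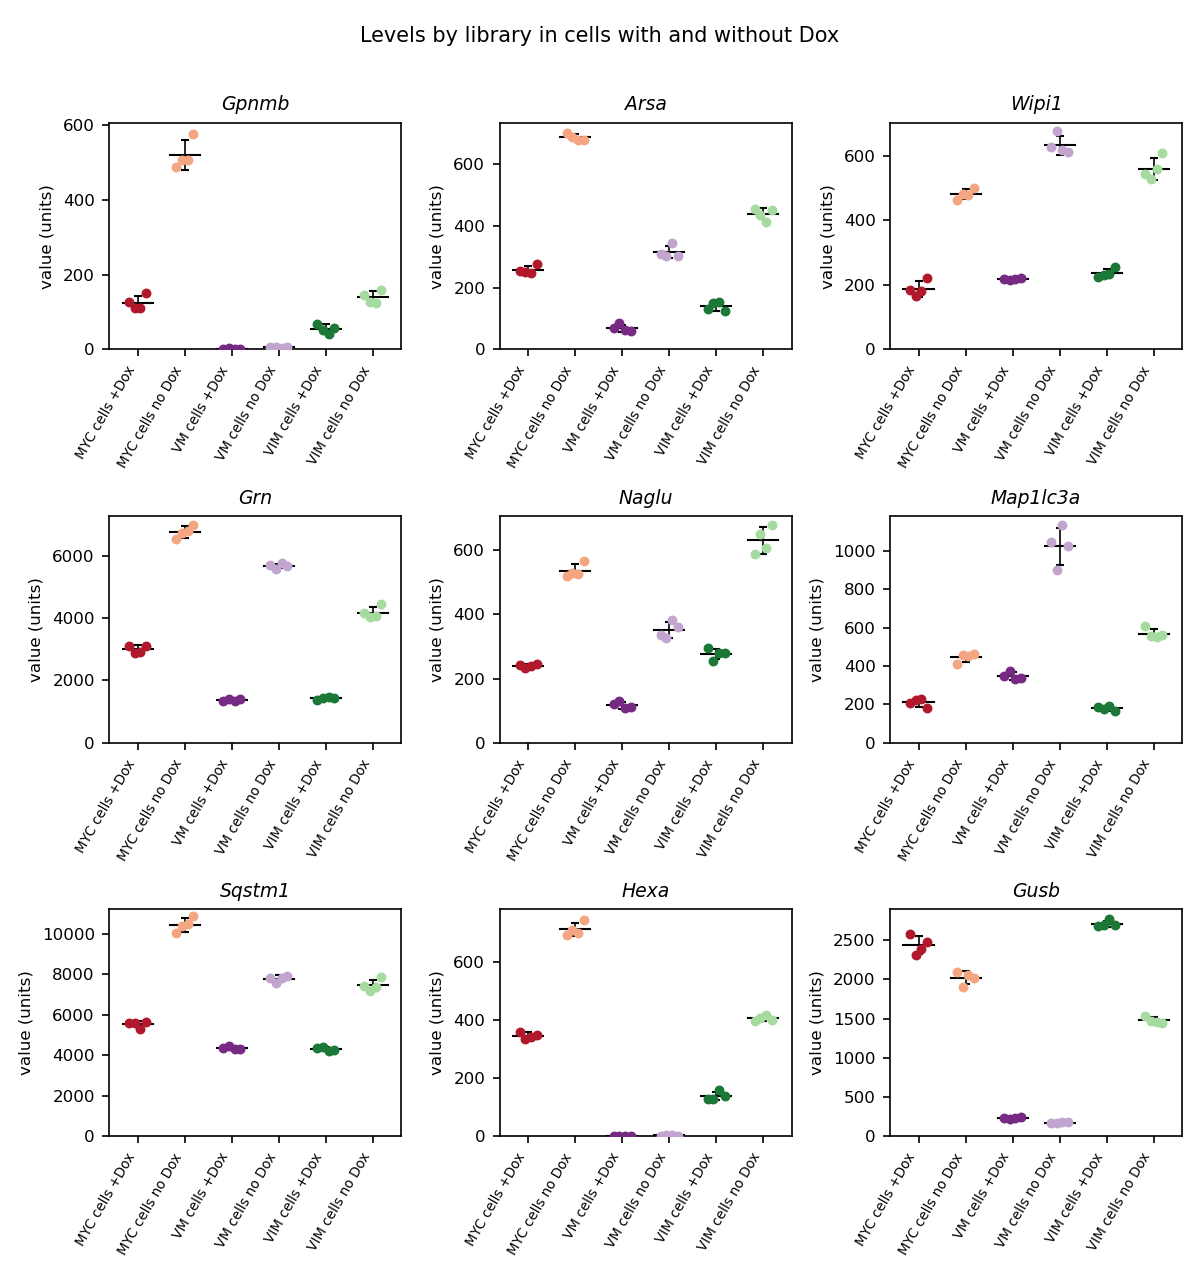
Levels (units, linear axes from 0) of 9 members in each of the 4 libraries per cell group; points are libraries, horizontal lines are means and error bars are SD. Libraries with Dox sit below those without it in each line for Arsa, Wipi1, Grn, Naglu, Map1lc3a and Sqstm1, and above them for Gusb; Hexa and Gpnmb are near 0 in VM cells.

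Autophagy members were lower with Dox in each line. Sqstm1 encodes p62, a receptor that brings ubiquitinated cargo to autophagosomes. It had 5585, 5606, 5310.0 and 5616 units in MYC cells with Dox and 10041, 10357, 10495 and 10874 without. VM cells had 4325, 4437, 4301 and 4286 with Dox and 7824, 7539, 7830.2 and 7916 without, and VIM cells had 4367, 4405, 4212 and 4268 and 7432, 7162, 7350.0 and 7836. The groups did not overlap, and the log2 changes of −0.92 ± 0.03, −0.84 ± 0.04 and −0.79 ± 0.03 stayed under the required size (limma adjusted p = 2.67e-15, 2.01e-12 and 1.73e-15). Map1lc3a encodes LC3A, a protein joined to autophagosome membranes, and had 185, 176, 192 and 165 units in VIM cells with Dox and 606, 555, 551 and 561 without. Its log2 changes were −1.09 ± 0.07, −1.55 ± 0.07 and −1.66 ± 0.06. Map1lc3a overlaps Pigu on the other strand. Wipi1, which binds phosphoinositides on forming autophagosomes, had 185, 165, 180.4 and 221 units in MYC cells with Dox and 462, 482, 479 and 501 without. Wipi1 fell by 1.36, 1.53 and 1.24 in the 3 lines, and Map1lc3b changed by −0.58, −0.97 and −0.95.

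The 5 V-ATPase genes changed less. All 5 were lower at an adjusted p under 0.05 in each line, with medians of −0.36, −0.77 and −0.68, and 1 of them fell, Atp6v0d1 in VIM cells, by 1.12. Atp6v1h, a regulatory subunit, changed by −0.29, −0.25 and −0.32, close to the median of all genes in VM cells. Of the membrane proteins, Lamp1 changed by −0.46, −0.81 and −0.56. Lamp2, Mcoln1 and the cholesterol transporter Npc1 fell in VM and VIM cells, by 1.05 to 1.30, and did not exceed 1 in MYC cells. Gpnmb, a transmembrane glycoprotein of melanosomes and phagocytes, had 127, 111, 111 and 151 units in MYC cells with Dox and 488, 507, 508 and 577 without, a log2 change of −2.06 ± 0.08 (limma adjusted p = 9.19e-14). In VIM cells Gpnmb had 68.7, 52.7, 40.0 and 58.2 with Dox and 145, 127, 126 and 160.1 without, a fall of 1.35. In VM cells Gpnmb had 0, 3.4, 0.849 and 1.75 with Dox and 5.29, 7.75, 4.65 and 6.08 without, so the fitted fall of 1.65 there rests on a few reads and was −0.48 with a pseudocount of 10.

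Promoter letters and the Dox change were set side by side over the 35 members with a RefSeq promoter and a tested Dox change, which leaves out Ctss. The mean log2 change over the lines had a median of −0.89 in the 10 members with CACGTG and −0.83 in the 25 without, and of −1.0 in the 4 with TCACGTGA. These ranges overlap, from −1.75 to −0.50 with CACGTG and from −1.69 to 0.52 without.

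Genes outside the 43 but of the same compartments were counted from lists of other members of each pathway. Beside these counts, 15%, 18.9% and 16.6% of all genes fell in MYC, VM and VIM cells, and 4.49%, 5.92% and 7.67% rose. Of 20 other lysosomal hydrolases and activators, 6 of the 19 tested fell in MYC cells, 11 of 18 in VM cells and 7 of 20 in VIM cells, and 0 rose in any line. Of 10 other lysosomal membrane genes, 0, 2 and 3 fell. Of 14 other V-ATPase genes, 1 of 13, 2 of 12 and 3 of 13 fell. Of 24 other autophagy genes, 2, 3 and 2 fell, a smaller share than that of all genes in each line. Their medians of −0.22, −0.41 and −0.33 were closer to those of all genes. Of 14 genes in the table that control MiT/TFE factors, 0 fell and 1 rose in each line. That gene was Rragb, a Rag GTPase that recruits mTORC1 to lysosomes, at 1.81, 1.41 and 1.43. The related factor Tfe3, which is on this list, changed by −0.50, −0.34 and −0.19.

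The size of the Dox change was compared between lines by limma interactions. For VIM against VM cells, 0 of 42 members differed by more than 1 at an adjusted p under 0.05 (6.05% of all genes did, 3.7% higher and 2.35% lower). Without the size requirement 23 members had a higher change in VIM cells and 2 a lower one, where 22.8% and 10.5% of all genes did. With TMM rescaling these counts, without the size requirement, were 12 and 6. With the size requirement, 425 of all genes passed higher and 425 lower under TMM, against 562 and 356 with the authors' scaling. Grn had an interaction of 0.49 ± 0.05 and Arsa of 0.54 ± 0.14. For the mean of the VM and VIM lines against the MYC line, 0 of 42 members passed (7.27% of all genes did, 3.19% higher and 4.08% lower), while 28 members had a lower change in the Vhl-deleted lines and 4 a higher one, against 25.9% and 19.6% of all genes. The members with the lowest interactions at an adjusted p under 0.05 were Galns at −0.70 ± 0.09 and Grn at −0.63 ± 0.04. In the labels each line has its own run of J numbers, while the S numbers run on from VM to VIM cells and start again for MYC cells. Genotype, line and library series therefore cannot be told apart in these comparisons.

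Among cells with Dox, some members differed far more between lines than they changed with Dox. Hexa (mm9, chromosome 9, 59387474 to 59412914) had 0, 0, 0.849 and 0 units in VM cells with Dox, where all 4 libraries are at or under the floor, and 0, 4.65, 4.65 and 1.52 without Dox. It had 128, 128, 157 and 138 in VIM cells and 360.0, 334, 341 and 349 in MYC cells with Dox. Against the highest floor of the VM libraries, Hexa was at least 52.3-fold higher in VIM cells and at least 132-fold higher in MYC cells. Its fitted log2 differences of 6.89 and −8.22 depend on the pseudocount. Tumours of the VM model had 1927, 1258 and 766 units of Hexa, and the value of 1258 belongs to the library numbered 3055, the mouse number of the VM line.

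Ctsz, a cysteine carboxypeptidase, had 2829, 2955, 2938 and 2941 units in MYC cells with Dox, 31, 22.1, 35.7 and 24.6 in VM cells and 140.2, 166, 154 and 143 in VIM cells. The groups do not overlap, and the log2 difference was −6.66 ± 0.11 for VM against MYC cells (limma adjusted p = 9.77e-15) and 2.39 ± 0.15 for VIM against VM cells. Ctsz (mm9, chromosome 2, 174252994 to 174264540) overlaps Th1l on the other strand. Gusb, given above by library, averaged 229 ± 10.8 units in VM cells with Dox, against 2438 ± 112 in MYC and 2709 ± 37.9 in VIM cells (SD, n = 4). These were log2 differences of −3.41 ± 0.04 and 3.56 ± 0.04, far larger than its change with Dox in the same cells. Gpnmb averaged 1.5 ± 1.46 units in VM cells with Dox, 54.9 ± 11.9 in VIM cells and 125 ± 18.7 in MYC cells, and 3 of its 4 VM values were at or under the floor. With pseudocounts of 0.1 and 10 its difference between VIM and VM cells was 5.93 and 2.49 instead of 4.66.

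In all, 7 members were higher and 2 lower in VIM than in VM cells with Dox (19.1% of all genes passed, 9.69% higher and 9.45% lower). The 7 were Hexa, Gpnmb, Gusb, Ctsz, Naglu, Man2b1 and Arsa, and the 2 were Tfeb at −1.53 ± 0.14 and Mitf at −1.08 ± 0.12 (limma adjusted p = 7.48e-08 and 7.17e-07). Mitf was −0.96 with a pseudocount of 10, below the required size. In VM against MYC cells with Dox, 1 member was higher and 11 were lower (24.6% of all genes passed, 6.54% higher and 18.1% lower). The higher one was Arsb, with 1299.7, 1260.3, 1269 and 1221 units in VM and 545, 550.2, 577 and 587 in MYC cells, a difference of 1.16 ± 0.04 (limma adjusted p = 3.72e-12). Over all genes, 967 were higher and 2668 lower, and with quantile normalization 1937 and 1782. Arsb overlaps 2 annotated genes on the other strand. The lower ones were Hexa, Ctsz, Gpnmb, Gusb, Tfec, Arsa, Galns, Man2b1, Sgsh, Grn and Naglu. These comparisons share the VM libraries with Dox, and with 1 line per genotype they compare lines, not genotypes.

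**Figure D4:**
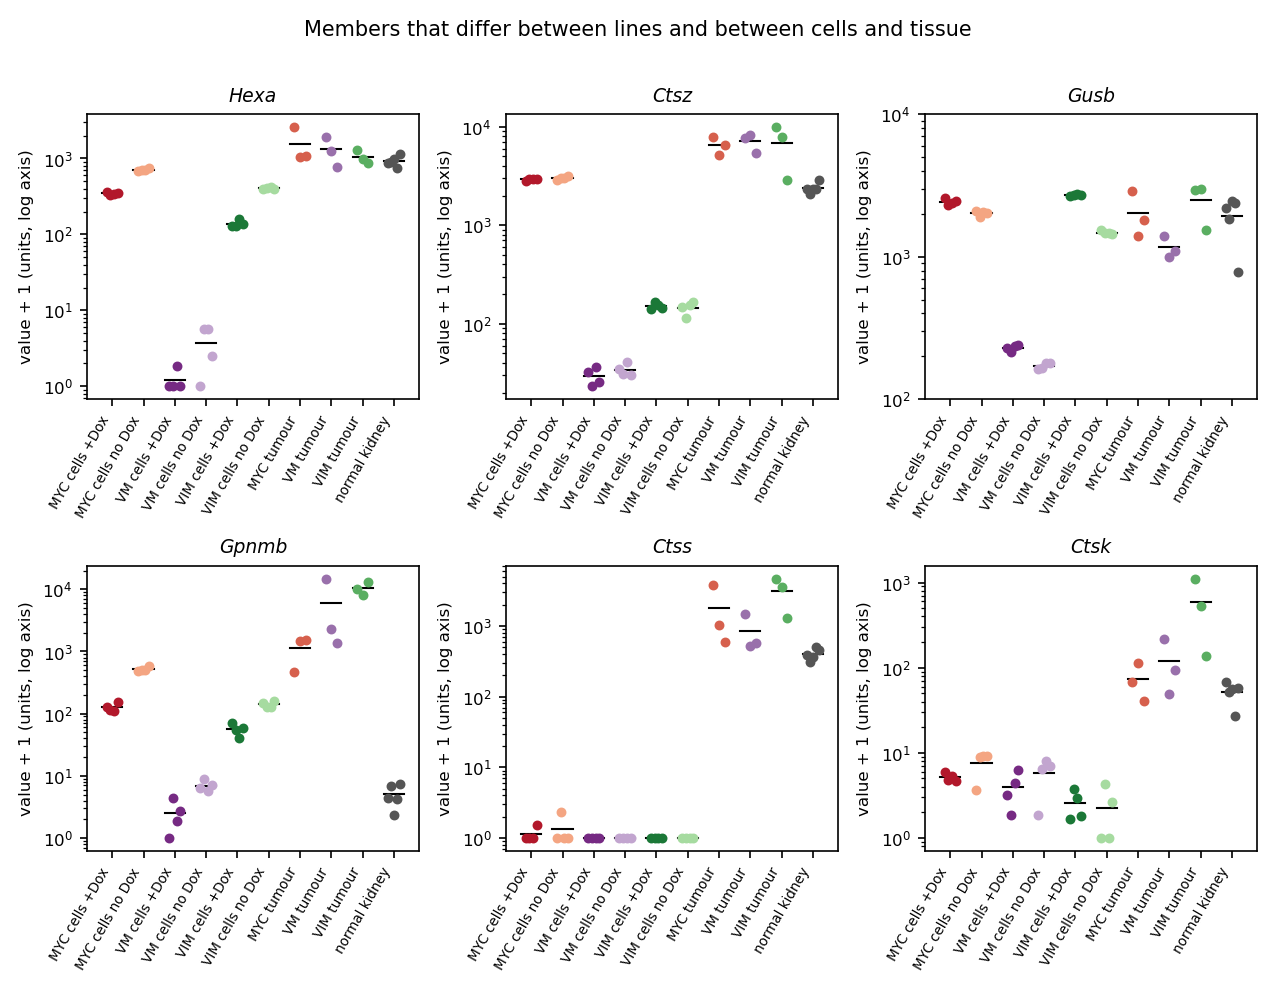
Values of 6 members plus 1 unit (log axes) in each library of the 10 groups; points are libraries and lines are group means. Hexa, Ctsz, Gusb and Gpnmb are lowest in the VM cell groups or, for Gpnmb, in VM cells and normal kidney, and Ctss and Ctsk are near the floor in the cell groups and present in each tissue library.

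In tumours, the share of members that passed against normal kidney was no larger than that of all genes. Most members that passed with the authors' scaling were lower, and a few were far higher. In MYC tumours 5 members rose and 10 fell of 43 tested (37.4% of all genes passed, 18.8% higher and 18.6% lower). In VM tumours 2 rose and 15 fell (39.8% passed, 17.3% higher and 22.5% lower). In VIM tumours 4 rose and 11 fell (39.6% passed, 18.9% higher and 20.7% lower). The median log2 change was −0.42, −0.63 and −0.64, beside 0.07, −0.05 and 0.01 for all genes. With quantile normalization the medians of the members were −0.13, −0.37 and −0.31, beside 0.08, 0.11 and 0.05 for all genes. By an adjusted p under 0.05 alone, 6 members were higher and 17 lower in MYC tumours. There were 3 and 22 in VM and 5 and 20 in VIM tumours. By the same rule, of all 16491 genes tested in MYC tumours 4527 were higher and 4012 lower. These numbers were 4253 and 4791 of 16521 in VM and 4226 and 4334 of 16569 in VIM tumours. With quantile normalization the member counts were 8 and 10, 8 and 18, and 7 and 19. On both thresholds quantile normalization gave 6 higher and 6 lower in MYC, 3 and 10 in VM and 5 and 8 in VIM tumours. Over all genes these numbers were 3254 and 3020, 3499 and 3256, and 3339 and 3294. The share of members that fell was then near that of all genes. The 3 comparisons share the same 5 kidney libraries, and libraries of one mouse were averaged, so MYC tumours enter with 2 mice. In bulk tissue, fewer cells of a type and less RNA per cell cannot be told apart.

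Markers of some cell types differed between tumours and kidney. The summed level of the proximal tubule markers was 517143 to 1500670 units in normal kidney, 4028 to 10954 in MYC, 4919 to 6385 in VM and 2023 to 9532 in VIM tumours. The summed macrophage markers had 2803 to 3928 units in kidney, 7928 to 28932 in MYC, 5177 to 16607 in VM and 13342 to 22881 in VIM tumours. Of the 14 macrophage markers tested, 11, 5 and 11 rose in MYC, VM and VIM tumours, and 0, 1 and 0 fell. All 14 were above the floor in every tumour library. Among these markers, Emr1 averaged 76.6 units in kidney and 377, 127 and 274 in MYC, VM and VIM tumours. Of the 5 endothelial markers, 5, 4 and 5 fell in MYC, VM and VIM tumours, with medians of −3.04, −2.64 and −2.27, and their sum was 3253 to 5579 units in kidney and 192 to 1949 in the tumours. Fibroblast marker sums overlapped. They were 1159 to 4242 units in kidney, 986 to 12372 in MYC, 603 to 1715 in VM and 957 to 2538 in VIM tumours. Of the 8 fibroblast markers, 1, 0 and 0 rose and 1, 3 and 1 fell. Of the 7 kidney epithelium markers, 2, 1 and 2 rose and 3, 4 and 3 fell. The part of these cell types in the changes below was not tested. The fifth kidney library had 517143 units of proximal tubule markers, the lowest of the 5, and without it 17, 19 and 17 members passed in MYC, VM and VIM tumours.

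Gpnmb (mm9, chromosome 6, 48986517 to 49020928) had the largest difference of any member in each comparison with kidney. It had 3.46, 5.84, 1.34, 3.26 and 6.33 units in the normal kidney libraries, 3 of which are at or under the floor. MYC tumours had 465, 1452 and 1518 units, VM tumours 14747, 2257 and 1353 and VIM tumours 10207, 8004 and 13057. The lowest tumour library was far above the highest kidney library. Its fitted log2 changes were 7.48 ± 0.63, 9.57 ± 0.73 and 11.10 ± 0.41 (limma adjusted p = 5.58e-05, 4.89e-06 and 7.88e-07), and they were 5.92, 8.0 and 9.52 with a pseudocount of 10. In the cell groups Gpnmb averaged 125 to 520.1 units in MYC, 1.5 to 5.94 in VM and 54.9 to 139 in VIM cells, and the summed macrophage markers had 474 to 1400 units over all cell libraries. The difference between VIM and VM tumours was 1.52 ± 0.76, with overlapping libraries and an adjusted p of 0.516.

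The other members that rose were proteases, a sulfatase and progranulin. Ctsz had 7827, 5207 and 6484 units in MYC, 7728, 8308 and 5428 in VM and 9896, 7873 and 2895 in VIM tumours, and 2355, 2070.1, 2304, 2337 and 2850.1 in kidney. Every tumour library was above every kidney library, and the log2 changes were 1.51 ± 0.17, 1.57 ± 0.17 and 1.36 ± 0.34 (limma adjusted p = 0.000232, 4.11e-05 and 0.00791). Ctss, a cathepsin of antigen-presenting cells, had 3809, 1022 and 585 units in MYC, 1465, 527 and 571 in VM and 4640.3, 3561 and 1302 in VIM tumours, against 307 to 498 in kidney. It rose in MYC tumours by 2.11 ± 0.51 and in VIM tumours by 2.80 ± 0.37 (limma adjusted p = 0.00923 and 0.000174), and its change in VM tumours was 0.94 ± 0.32. Without the first MYC tumour library, the only one of its mouse, the Ctss change was 0.96 and no longer passed, and against the 3 kidneys labelled KT alone it was 2.06 (limma adjusted p = 0.0502). In the first MYC tumour library the summed macrophage markers were highest, at 28932 units.

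Ctsk, known best from osteoclasts, had 1105, 529 and 136 units in VIM tumours, 216, 48.5 and 93.7 in VM tumours, 66.2, 111 and 39.5 in MYC tumours and 26.1 to 67.5 in kidney. It rose in VIM tumours by 3.11 ± 0.60 (limma adjusted p = 0.00183), whereas MYC and VM tumours overlapped the kidneys. Arsa rose in MYC tumours by 1.49 ± 0.32, with 507, 805 and 569 units against 143 to 343, and Grn by 1.15 ± 0.16, with 7011, 4843 and 5499 against 2346 to 2937. In VM and VIM tumours both genes overlapped the kidney libraries.

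Among the members that fell, glycan-degrading enzymes had the largest changes. Neu1 had 2354, 636 and 1305 units in MYC, 1651, 965 and 1355 in VM and 4173, 2130.3 and 2520.4 in VIM tumours, and 13481, 10962, 15818, 12676 and 7732 in kidney, with no overlap. Its log2 changes were −3.01 ± 0.39, −3.19 ± 0.25 and −2.07 ± 0.28 (limma adjusted p = 0.000408, 5.72e-06 and 0.000221). Arsb had 1473, 912 and 922 units in MYC, 777, 1085 and 910.5 in VM and 962, 1112 and 374 in VIM tumours, and 5685, 6300.4, 7615, 7371 and 3659 in kidney, also with no overlap. The changes of Arsb were −2.35 ± 0.31, −2.69 ± 0.24 and −3.01 ± 0.36 (limma adjusted p = 0.000451, 1.17e-05 and 0.00011). The fifth kidney library had the lowest value of both genes, 7732 and 3659 units.

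Naglu had 274, 135 and 187 units in VM tumours against 936 to 1178 in kidney, a change of −2.49 ± 0.21 (limma adjusted p = 9.83e-06). In MYC tumours Naglu had 1282, 204 and 294, where the mouse labelled 2917 was above the kidneys and the 2 libraries of mouse 2983 were below them. Galns had 1002, 733 and 510.3 units in VIM tumours and 3014, 3308, 3228, 4062 and 926 in kidney, a change of −1.85 ± 0.45 (limma adjusted p = 0.00607), and the fifth kidney library overlapped the tumours. Map1lc3a had 445, 262 and 305 units in MYC tumours and 1699, 1584, 1738, 1432 and 929.8 in kidney, a change of −2.02 ± 0.28 (limma adjusted p = 0.000554). It changed by −0.98 in VM and −1.53 in VIM tumours. Sqstm1 had 4354, 7231 and 5884 in MYC, 6617, 4655 and 3593 in VM and 4224, 3782 and 3947 in VIM tumours, against 8775, 10255, 10490.0, 10568 and 6740.0 in kidney. Sqstm1 fell in VIM tumours, by 1.21 (SE 0.19, limma adjusted p = 0.00046), and the change was −0.90 with quantile normalization.

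Of the 5 V-ATPase members, 2 fell in MYC, 2 in VM and 1 in VIM tumours, and of the 7 membrane members, 2, 1 and 1 fell and Gpnmb rose. Atp6v1a, the catalytic subunit of the pump, fell by 1.95, 1.71 and 1.47 on the log2 scale in MYC, VM and VIM tumours, and Lamp1 by 1.30, 1.5 and 1.27. Lipa, the lysosomal acid lipase, fell by 1.21, 1.12 and 1.10. Psap fell by 1.21 in MYC and 1.77 in VM tumours and had a change of −0.93 in VIM tumours (limma adjusted p = 0.0543). Ctsa, Ctsb and Ctsl had changes between −0.07 and 0.26. Of the 14 other V-ATPase genes, 10, 7 and 3 fell in MYC, VM and VIM tumours. Of the 20 other hydrolases and activators, 7, 9 and 8 fell and 1, 1 and 1 rose. Over all genes 18.6%, 22.5% and 20.7% fell and 18.8%, 17.3% and 18.9% rose in MYC, VM and VIM tumours.

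**Figure D5:**
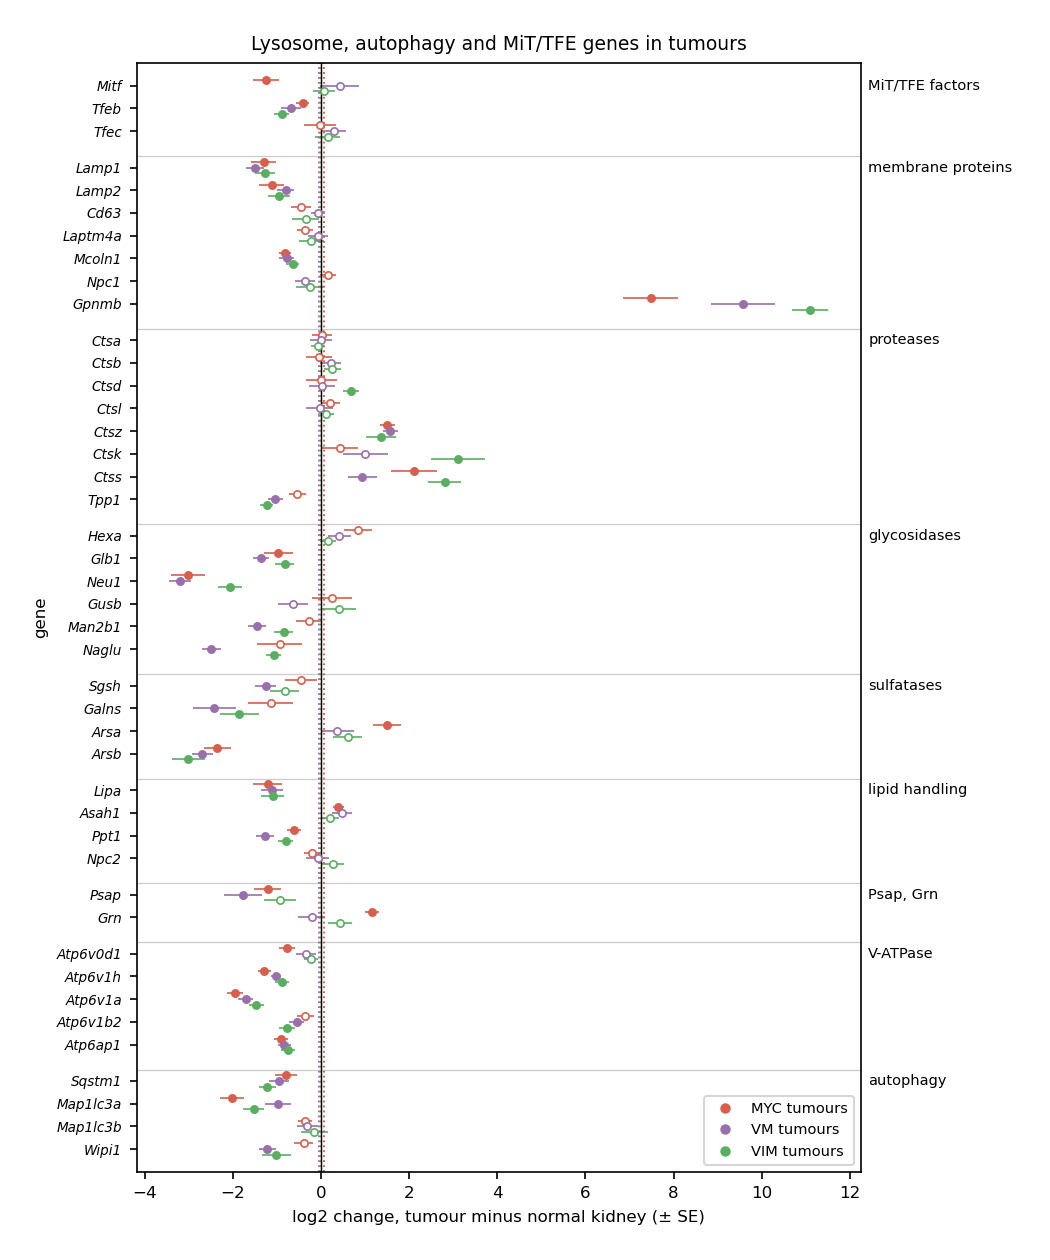
Log2 change of tumour minus normal kidney (± SE) of the 43 members in MYC, VM and VIM tumours, ordered by role; filled points have a limma adjusted p under 0.05 and dotted lines mark the median of all genes. Gpnmb stands far to the right at 7.48, 9.57 and 11.10, and Neu1 and Arsb lie furthest to the left, from −3.19 to −2.07.

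Between VIM and VM tumours, which differ by the Ink4a/Arf deletion, 0 of 43 members passed (0.249% of all genes did, 0.174% higher and 0.0746% lower). By limma 0 members had an adjusted p under 0.05, and 5 (11.6%) had an unadjusted p under 0.05, near the 11.4% of all genes. In the VIM tumours 28 members were higher and 15 lower by fitted value (65.1% higher, beside 56% of all genes). The libraries of the groups did not overlap for Neu1, Naglu and Gusb, which were higher in VIM tumours by 1.12 ± 0.32, 1.41 ± 0.36 and 1.04 ± 0.31 (limma adjusted p = 0.226, 0.182 and 0.242). These are 6.98% of the members, while 9.16% of all genes were higher without overlap, and 0 members were lower without overlap, beside 5.76% of all genes. The 3 were named after their values were seen. At 3 against 3 mice, the members with the largest differences were Ctsk at 2.10 ± 0.80, Ctss at 1.87 ± 0.54 and Gpnmb at 1.52 ± 0.76, with adjusted p-values of 0.365, 0.233 and 0.516 from limma. Macrophage markers had a median difference of 1.27 in the same comparison, with 12 of 14 higher in VIM tumours. Markers of proximal tubule had a median of 2.33 (8 of 10 higher, 1 passing), fibroblast markers 0.97 (6 of 8), kidney epithelium markers 0.89 (6 of 7) and endothelial markers 0.37 (3 of 5). The part of these cell types in the member differences was not tested.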

How the data were processed

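RNA from 24 cell libraries and 14 tissue libraries was sequenced after stranded mRNA library preparation. The deposited values are a signal per gene that the authors made with RSEM from reads aligned with MapSplice to mm9 and scaled so that each library's upper quartile is 1000. Per the labels, Picard 1.64 and SAMtools were also used. Whether counting used strand is not given in the sources used here. Cells were plated with Dox or without it and collected 24 h later.

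The smallest step between low values gave the units per read of each library, and 94.1% to 95.8% of low values were whole reads within 0.02. Whole reads could not be recovered for nearly all genes in every library, so no count test was made, and the reads given are estimates. Genes above 0 in at least 4 cell libraries or 2 tissue samples were tested with limma 3.58.1 (R 4.3.3) on log2(value + 1), with an intensity trend and two-sided tests. Libraries of 1 mouse were averaged. Each Dox comparison used its own line, line comparisons used cells with Dox, and tumours were set against the 5 kidneys. Interactions compared the Dox changes of lines. In simulated data with 200 changed genes, 100% were called for Dox in VM cells and 67.5% for MYC tumours against kidney. These shares hold only for the size of change that was simulated. The share called at other sizes, such as the median changes of the members, was not tested. Same-numbered cell libraries did not deviate together (mean correlation −0.0191 to 0.00528), so numbers were not used to pair them.

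The 43 members, the other gene lists and the tests were chosen with earlier results of these data known. Members given by library are those of the MiT/TFE family, Sqstm1, the 3 with the largest passing change in each direction per comparison above a mean of 50 units, and, chosen after their values were seen, others set beside them. Alternatives were a pseudocount of 0.1 or 10, no filter or a minimum mean of 10 units, TMM rescaling, quantile normalization, fits over all cell or tissue groups, a replicate block, each library as its own sample, the 3 KT kidneys alone, and each library left out in turn. Positions are from the mm9 annotation, under which 17 members overlap another gene. Python 3.11.15 with pandas 2.3.3 and matplotlib 3.10.9 drew the figures. Errors after ± are limma SEs or SDs between libraries, and only the floors and the fold bounds against them rest on counting error.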

Additional observations from a re-analysis of the deposited data

Results flagged for a closer look

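Among 18 members tested over the groups of 4 or 5 libraries, 7 of 116 sets held 1 library far from the rest by Dixon's test, where chance gives about 1 in 20. The fourth VM cell library with Dox had 114 units of Mitf, while the others had 102 to 104. The first VM cell library with Dox had 124 units of Tfeb, against 92.8 to 96.9 in the others. The third MYC cell library with Dox had 5310.0 units of Sqstm1, below the 5585 to 5616 of the others. The third VM cell library without Dox had 344 units of Arsa, above 303 to 309.5. The third VIM cell library with Dox had 2765 units of Gusb, against 2685 to 2693. The first MYC cell library with Dox had 2829 units of Ctsz, against 2938 to 2955, and the first MYC cell library without Dox had 2.62 units of Ctsk, a level near the floor, against 7.90 to 8.16. No library stood apart for more than 1 of these members.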

How the results depend on the processing

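Most results kept their direction and their side of the thresholds under the alternatives. For the number of members passing, 183 alternatives stayed within 1.5 times the reported count and 10 did not. Of the other results, 1465 stayed the same, 17 medians moved, 15 lost a call, 10 gained one and 37 changed direction. For MYC cells, 5 members passed with TMM rescaling (Gpnmb, Arsa, Wipi1, Grn and Naglu) and 5 with quantile normalization, against 10. For VIM cells, 9 passed with TMM rescaling against 17, since TMM shifted the changes of all genes upward. Over all genes, TMM rescaling changed the numbers higher and lower from 678 and 2264 to 912 and 1850 in MYC cells, from 847 and 2707 to 1345 and 2018 in VM cells, and from 1074 and 2322 to 1396 and 1911 in VIM cells. For the interaction of VIM against VM cells 1 member passed with a pseudocount of 10 (Hexa, lower). For the Vhl-deleted lines against MYC cells 1 passed with a pseudocount of 10 (Gpnmb), 1 with TMM rescaling (Tfec) and 1 with quantile normalization (Tfec), all near the floor in VM cells. With the replicate block the counts were 21 for VM cells, 17 for VIM cells, 0 for their interaction and 9 for VIM against VM cells, as without it, and it changed no other call.

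Among members with an adjusted p under 0.05, 7 turned with the scaling, none of which had passed on size. With TMM rescaling Asah1, Atp6v1a and Ctsa in VM against MYC cells went from −0.11, −0.11 and −0.12 to 0.04, 0.04 and 0.03. With quantile normalization Atp6v1b2 and Lamp2 in VM tumours went from −0.56 and −0.80 to 0.01 and 0.04, and Mitf in VM against MYC cells and Sqstm1 in the Vhl-deleted lines also turned. For the change with Dox, Tfeb in VM cells was 0.15 with TMM and 0.39 with quantile normalization, and Mitf in VIM cells 0.13 and 0.52. For interactions, Gpnmb in VIM against VM cells was −0.74 with a pseudocount of 10 and Sqstm1 −0.10 with TMM, and in the Vhl-deleted lines against MYC cells Tfeb was −0.0092 with TMM and Sqstm1 −0.013 with quantile normalization. Quantile normalization also gave Sqstm1 0.015 for VIM against VM cells and Mitf 0.12 for VM against MYC cells. With the KT kidneys alone, Tfec was 0.31 in MYC tumours and Mitf −0.12 in VIM tumours. The causes were not tested.

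Leaving out 1 library gave 9 to 10 members for MYC cells, 19 to 21 for VM cells, 16 to 19 for VIM cells, 8 to 9 for VIM against VM cells, 11 to 13 for VM against MYC cells, 15 to 17, 15 to 19 and 14 to 17 for MYC, VM and VIM tumours, and 0 for VIM against VM tumours. Both interactions gave 0 to 1, the 1 being Tfec without the first VM library without Dox in both and also without the first VM library with Dox for the Vhl-deleted lines. Values that crossed 0 were Mitf with Dox in VIM cells (−0.072 to 0.078), the interactions of Gpnmb (−0.068 to 0.65) in VIM against VM and Tfeb (−0.085 to 0.065) in the Vhl-deleted against MYC lines, and Sqstm1 in VIM against VM cells (−0.018 to 0.0032). In tumours against kidney these were Tfec in MYC (−0.49 to 0.13), Mitf in VM (−0.20 to 0.93), and Mitf (−0.066 to 0.25) and Tfec (−0.062 to 0.34) in VIM tumours. In VIM against VM tumours they were Mitf (−0.87 to 0.26), Tfeb (−0.45 to 0.075) and Tfec (−0.36 to 0.048). Without the first VM tumour library Sqstm1 fell by 1.18 in VM tumours, and without the fifth kidney by 1.06, against a change of −0.94 with all libraries.

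With 2 or 3 mice per tumour group, the precision of tumour values is limited. Levels of Hexa, Gpnmb, Tfec, Ctss and Ctsk in cells rest on a few reads in at least 1 line. A count model on recovered reads was not run because whole reads could not be recovered in every library.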

Other observations

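Genes near 3 members that were low in VM cells were read in the same libraries, with the regions chosen after the values were seen. Near Hexa on chromosome 9, Arih1 averaged 2524 units in VM cells with Dox, 2667 in VIM and 2009 in MYC cells. Parp6 averaged 227, 225 and 216, and Pkm2 averaged 45158, 56871 and 36487. The genes directly beside Hexa, Tmem202 and Celf6, averaged at most 1.09 units in these groups. Hexa itself averaged 0.212 units in VM cells with Dox, against 138 in VIM and 346 in MYC cells. Near Ctsz on chromosome 2, Th1l averaged 1031 units in VM, 1059 in VIM and 916 in MYC cells with Dox. Slmo2 averaged 1866, 1706 and 1533, while Ctsz averaged 28.3, 151 and 2915. Near Gusb on chromosome 5, Crcp averaged 630.5, 654 and 593 units and Vkorc1l1 117, 86.5 and 75, while Gusb averaged 229, 2709 and 2438. Apart from Tmem202 and Celf6, which were near 0, the neighbours named in the 3 regions differed far less between lines than the member.

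Genes that control MiT/TFE factors held a few large differences between tumours and kidney. Rragb was higher by 3.43, 3.06 and 2.96 on the log2 scale in MYC, VM and VIM tumours, and Mtor, the kinase of mTORC1, fell by 2.68, 2.13 and 2.0. Of the 14 such genes in the table, 1 rose in each tumour kind and 3, 2 and 3 fell. Over all genes 18.8%, 17.3% and 18.9% rose and 18.6%, 22.5% and 20.7% fell. The 14 genes thus passed less often than all genes. Tfe3 had changes of 0.92, 0.77 and 0.18. Of 24 other autophagy genes, 6, 3 and 4 fell and 0, 1 and 1 rose, which was also less often than all genes passed. Of 10 other lysosomal membrane genes 5, 3 and 2 fell and 1, 0 and 0 rose. These passed less often than all genes in VM and VIM tumours, and more often in MYC tumours. The genes of these lists were compared with the same 5 kidneys as the members. The marker sums of proximal tubule and macrophages differed between the same libraries, and their part was not tested.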
